A study of Drosophila melanogaster with 12 samples.

Results

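The genes described here are 9 members of the Hippo growth control pathway of Drosophila melanogaster and of its Fat cadherin branch, picked by symbol from 17869 gene rows: yki, wts, hpo, Mer, ex, kibra, ft, ds and fj. RNA was measured by sequencing total RNA of wing discs, the larval epithelia that form the adult wing, taken from L3 larvae 7 days after egg laying, with 150 discs pooled in each of 12 libraries. All larvae carried nub>mRFP, that is a nub-Gal4 driver with a red fluorescent reporter. Of the 3 groups of 4 libraries, the first carried ecd-RNAi and Xrp1-RNAi besides (ecd plus Xrp1 RNAi), the second ecd-RNAi besides (ecd RNAi), and the third, the control, no RNAi. Discs with only Xrp1-RNAi were not analysed here. The driver acts in the nubbin domain, which covers the wing pouch, while whole discs with hinge, notum and other cells were sequenced. A level is therefore an average over the disc, and fewer cells that use a gene cannot be told apart from less RNA per cell.

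The Hippo pathway restrains growth through 2 kinases in a chain, in which Hpo activates Wts, and Wts phosphorylates the coactivator Yki and so keeps it out of the nucleus. The proteins Ex, Mer and Kibra sit at the apical cell cortex and activate this chain. Ft and Ds are very large cadherins that bind each other between neighbouring cells, Fj is a Golgi kinase that phosphorylates both, and together they regulate growth and the orientation of cells in the wing disc. The genes ex, kibra and fj are also known as targets of Yki.

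Values are the authors' normalized counts, and their sums over a library ran at 29.1 to 32.3 M (M, counts in units of 1e6) with ecd plus Xrp1 RNAi, 32.4 to 35.4 M with ecd RNAi and 26.5 to 29.0 M in controls. Depth in reads remains unknown. The gene ecd itself was not lower in libraries labelled ecd RNAi: it stood at 1696 to 1825 normalized counts in libraries labelled ecd plus Xrp1 RNAi, at 1423 to 1982 in libraries labelled ecd RNAi and at 1420.3 to 1654 in controls. Each direction below rests on these labels. Xrp1, a stress-induced transcription factor, stood at 4447 to 6048 with ecd plus Xrp1 RNAi, 18985 to 22964 with ecd RNAi and 4511 to 5078 in controls. The summed level of 6 wing pouch markers was 34599 to 41503 with ecd plus Xrp1 RNAi, 25716 to 31841 with ecd RNAi and 33962 to 37545 in controls, and that of 6 adult muscle precursor markers was 5924 to 6791 with ecd plus Xrp1 RNAi, 4056 to 4610 with ecd RNAi and 5486 to 5951 in controls. For 6 notum markers the sums were 13296 to 15675 with ecd plus Xrp1 RNAi, 8693 to 10898 with ecd RNAi and 11893 to 13779.6 in controls, and no marker of these lists was at 0 in a whole group. These 3 sums were lower in every ecd RNAi library than in every other library. The sum of 5 hinge markers went another way, at 62930 to 73356 with ecd plus Xrp1 RNAi, 57341 to 70510 with ecd RNAi and 54844 to 58978 in controls. Hemocyte markers (6) summed to 1104 to 1337 with ecd plus Xrp1 RNAi, 1374 to 1648 with ecd RNAi and 1092 to 2088 in controls. Although kits removed ribosomal RNA, its gene rows took 20.2% to 28.7% of the signal with ecd plus Xrp1 RNAi, 20.2% to 28.7% with ecd RNAi and 16.5% to 19.8% in controls. Rows that are no genes took 5.65% to 7.40% of the signal with ecd RNAi, and 0.452% to 0.645% in the other libraries. The part of these differences in the results below was not tested. The largest difference within a group was in fat body transcripts, whose 6 markers summed to 1693 to 2766 with ecd plus Xrp1 RNAi, 1133 to 25997 with ecd RNAi and 1216 to 72081 in controls.

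In libraries labelled ecd RNAi, the Fat receptor gene ft and the upstream activator genes ex, kibra and Mer were higher than in controls, as was fj, while hpo was lower. The largest rises were those of kibra (1.71-fold), ex (1.47-fold) and ft (1.32-fold). Of the 9 genes, 6 passed the test (limma, adjusted p under 0.05 over all genes tested), against 47.8% of all 10179 genes tested. Of these 6, 5 were higher, against 22.4% of all genes, and 1 was lower, against 25.4%. Without control replicate 2, 3 of the 9 passed (ex, kibra and ft). The groups did not overlap for ft, ex and kibra, 3 of 9, against 44.7% of all genes. The median change of the 9 genes was 0.17 (log2) against -0.04 over all genes, and their median absolute change was 0.21 against 0.34. Over all genes the median change also went with exonic length, from -0.17 in the shortest of 5 length classes to 0.07 in the longest. The longest class holds wts, ex, kibra, ft and ds, and the next holds hpo, Mer and fj. Beyond the adjustment for gene length given below, the part of length was not tested.

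With Xrp1 RNAi added to ecd RNAi, wts and hpo were higher and ft and fj lower than with ecd RNAi alone. These 4 of 9 genes passed, against 47.3% of all genes (26.7% higher and 20.6% lower), and wts, hpo and fj did not overlap between the groups, against 43.7%. The median change of the 9 was -0.21 against -0.01 over all genes. By length, the median over all genes was 0.06 in the shortest class and -0.04 in the longest. Both comparisons hold the same ecd RNAi libraries, so an opposite sign in them is not independent. Without ecd plus Xrp1 RNAi replicate 4, a library described further down, 7 of the 9 genes passed, with ex, kibra and Mer added on the lower side.

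Between ecd plus Xrp1 RNAi and control discs, 0 of 9 genes passed in limma, against 4.39% of all genes. These were 447 genes, 233 higher and 214 lower, or 207 higher and 372 lower with equal totals. Equal totals means that library sums over gene rows other than ribosomal RNA were set equal. An unadjusted p under 0.05 was reached by 4 of the 9 (wts, ex, kibra and ds), against 21.5% of all genes. By the authors' deposited table, wts alone of the 9 passed, against 9.52% of the genes with an adjusted p there. In limma, wts also passed without ecd plus Xrp1 RNAi replicate 4. The groups did not overlap for wts, ex, ft and ds, all higher, and for fj, lower, which is 5 of 9 against 16.9% of all genes (8.95% higher and 7.93% lower). The genes wts, ex, ft and ds all lie in the longest length class. Its median change over all genes was 0.05 here, against -0.03 in the shortest class, and 0.10 in genes of at least 10 kb. The hinge marker sum and the share of ribosomal RNA were also higher in every ecd plus Xrp1 RNAi library than in every control. The part of these measures in the differences was not tested, beyond the adjustment for gene length given below.

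**Figure D1:**
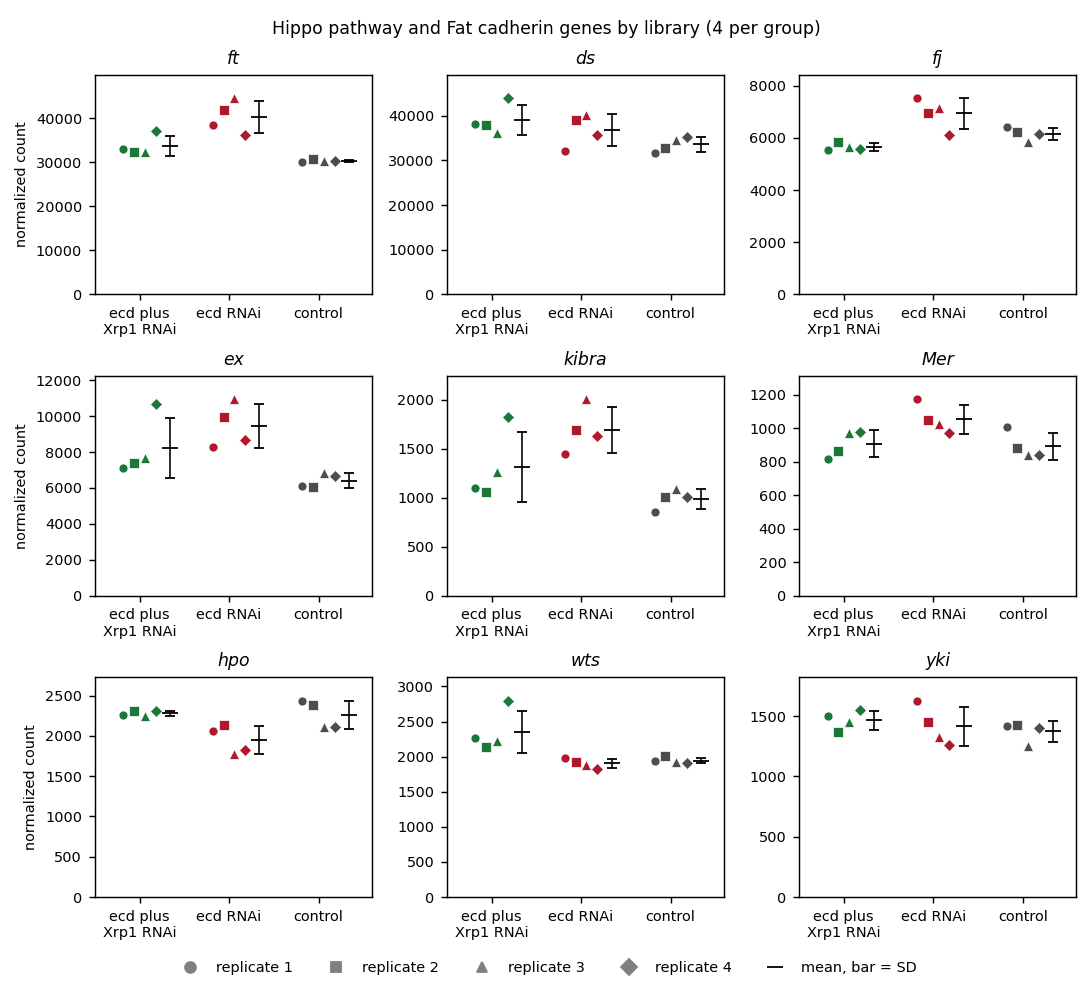
Normalized counts (vertical axes, from 0) of the 9 genes in each library, with marker shapes for replicates 1 to 4 and the mean with its SD beside each group of 4. In ft, ex and kibra every ecd RNAi library lies above every control library, and ecd plus Xrp1 RNAi replicate 4 is the highest of its group in all genes but fj.

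The receptor gene ft (FBgn0001075, 2L, 4198404 to 4221796 in BDGP6, minus strand) stood at 33086.5, 32412, 32371 and 37188 normalized counts in the 4 ecd plus Xrp1 RNAi libraries, at 38518, 41834, 44606 and 36196 in ecd RNAi libraries and at 30168, 30695.5, 30258 and 30323 in controls. Controls lay within a narrow band below all other libraries, and only the highest ecd plus Xrp1 RNAi library reached into the ecd RNAi range. The level of ft rose with ecd RNAi by 0.40 ± 0.08 (log2 change ± SE, adjusted p = 8.88e-04). It was lower with added Xrp1 RNAi than with ecd RNAi alone, by -0.25 ± 0.08 (adjusted p = 0.0179), a call lost in 6 of 27 alternatives (adjusted p up to 0.282). Among these were the omission of ecd plus Xrp1 RNAi replicate 2 (-0.23, adjusted p = 0.0532) or replicate 3 (-0.23, adjusted p = 0.0524). Against control, ecd plus Xrp1 RNAi differed by 0.15 (95% interval -0.02 to 0.32, adjusted p = 0.281). With an adjustment of every library for gene length, the change with ecd RNAi was 0.14 (adjusted p = 0.113) and that with added Xrp1 RNAi -0.11 (adjusted p = 0.220). At 16.85 kb of exons ft is the longest of the 9, and genes of at least 10 kb had a median change of 0.19 with ecd RNAi.

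Its ligand gene ds (FBgn0284247, 2L, 640013 to 714983, minus strand) stood at 38216, 37790.3, 36030.4 and 43913 with ecd plus Xrp1 RNAi, at 32151, 38936.5, 40035 and 35638.5 in ecd RNAi libraries and at 31644, 32797, 34607.5 and 35244.5 in controls. All ecd plus Xrp1 RNAi libraries lay above all controls, and the ecd RNAi libraries reached into both ranges. No comparison passed: ecd RNAi differed from control by 0.12 (95% interval -0.07 to 0.32, adjusted p = 0.280), added Xrp1 RNAi from ecd RNAi by 0.09 (-0.10 to 0.28, adjusted p = 0.434), and ecd plus Xrp1 RNAi from control by 0.21 (0.02 to 0.41, adjusted p = 0.196). Whether ft and ds differ in their change was not tested. An RNA gene on the opposite strand, lncRNA:CR44988, shares 125 bases (1.01%) of the exons of ds.

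The kinase gene fj (FBgn0000658, 2R, 18232761 to 18236311, plus strand), which has 1 exon, stood at 5526, 5848.7, 5656 and 5557 with ecd plus Xrp1 RNAi, at 7527, 6960.1, 7164 and 6125 in ecd RNAi libraries and at 6411, 6223, 5849.4 and 6159 in controls. The ecd plus Xrp1 RNAi libraries were close together and below every other library, the highest of them by less than 1 normalized count, and the ecd RNAi range overlapped that of the controls by its lowest library. With added Xrp1 RNAi, fj was lower than with ecd RNAi alone by -0.29 ± 0.06 (adjusted p = 0.00159), and this passed in all 27 alternatives tried. The rise with ecd RNAi against control, 0.17 ± 0.06 (adjusted p = 0.0368), was lost in 12 of 28. Among these were the omission of ecd RNAi replicate 1 (adjusted p = 0.107), 2 (0.0663) or 3 (0.0790), of control replicate 2 (0.0650), 3 (0.101) or 4 (0.0723), and of ecd plus Xrp1 RNAi replicate 3 (0.0503). Between ecd plus Xrp1 RNAi and control the difference was -0.13 (95% interval -0.26 to 0.01, adjusted p = 0.257).

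Of the upstream activators, ex (FBgn0004583, 2L, 431227 to 448701, plus strand) encodes a FERM domain protein of the apical cortex. Its level was 7120.1, 7402, 7683 and 10678 normalized counts with ecd plus Xrp1 RNAi, 8276, 9955, 10931 and 8692 with ecd RNAi and 6096, 6064, 6848 and 6649.6 in controls. Every control lay below every other library, and ecd plus Xrp1 RNAi replicate 4 stood among the highest ecd RNAi libraries while the other 3 of its group lay below all of them. The rise with ecd RNAi was 0.55 ± 0.12 (adjusted p = 0.00222), and it passed in all 28 alternatives. Added Xrp1 RNAi differed from ecd RNAi by -0.21 (95% interval -0.48 to 0.05, adjusted p = 0.170), and without replicate 4 ex fell by 0.35 (adjusted p = 0.00773). Against control the difference with ecd plus Xrp1 RNAi was 0.34 (0.07 to 0.61, adjusted p = 0.137), and 0.21 without that library (adjusted p = 0.249). The gene crq, on the opposite strand, shares 448 bases (6.71%) of the exons of ex, and the use of strand in counting is unknown here.

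The WW domain protein gene kibra (FBgn0262127, 3R, 14697689 to 14724261, minus strand) stood at 1098, 1060, 1261 and 1827 with ecd plus Xrp1 RNAi, at 1445, 1691, 2003 and 1633 in ecd RNAi libraries and at 852, 1005, 1091 and 1006 in controls. As with ex, all ecd RNAi libraries lay above all controls, and 1 ecd plus Xrp1 RNAi library, replicate 4, lay within their range. The change of 0.77 ± 0.16 with ecd RNAi (adjusted p = 0.00115) had the largest size of the 9 genes, and 22.1% of all genes tested changed at least as much. It passed in all 28 alternatives. With added Xrp1 RNAi, kibra differed from ecd RNAi by -0.39 (95% interval -0.73 to -0.06, adjusted p = 0.0531), which became -0.56 (adjusted p = 0.00155) without ecd plus Xrp1 RNAi replicate 4 and -0.47 (adjusted p = 0.0378) without ecd RNAi replicate 1. Between ecd plus Xrp1 RNAi and control it differed by 0.38 (0.04 to 0.71, adjusted p = 0.190), or by 0.21 (adjusted p = 0.361) without replicate 4.

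Mer (FBgn0086384, X, 19689697 to 19693500, minus strand) encodes the fly form of Merlin, a FERM domain protein that acts beside Ex. It stood at 816, 863, 972 and 975 with ecd plus Xrp1 RNAi, at 1171, 1047, 1025 and 968 in ecd RNAi libraries and at 1008, 882, 839 and 841 in controls. The ranges of all 3 groups overlapped. The rise with ecd RNAi was 0.24 ± 0.08 (adjusted p = 0.0331), and this call was lost in 9 of 28 alternatives. With the replicate number as a block the adjusted p was 0.0542 over the 12 libraries and 0.00671 in the 8 of this comparison. Of single libraries, it was lost without ecd RNAi replicate 1 (0.19, adjusted p = 0.0972) or 2 (0.24, adjusted p = 0.0567) and without control replicate 2 (0.23, adjusted p = 0.0687), 3 (0.21, adjusted p = 0.0831) or 4 (0.21, adjusted p = 0.0891). Added Xrp1 RNAi differed from ecd RNAi by -0.22 (95% interval -0.40 to -0.03, adjusted p = 0.0512). That difference passed when ecd plus Xrp1 RNAi replicate 3 (adjusted p = 0.0454) or 4 (0.0370), ecd RNAi replicate 4 (0.0374) or control replicate 1 (0.0377) was left out. Between ecd plus Xrp1 RNAi and control the difference was 0.02 (-0.16 to 0.21, adjusted p = 0.901).

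In the kinase chain, hpo (FBgn0261456, 2R, 19493996 to 19496856, minus strand) stood at 2265, 2305, 2248 and 2313 with ecd plus Xrp1 RNAi, at 2055, 2141, 1780.4 and 1820.4 in ecd RNAi libraries and at 2435, 2387, 2104 and 2108 in controls. The ecd plus Xrp1 RNAi libraries were nearly equal and above all ecd RNAi libraries, and the controls fell in pairs, one of which reached into the ecd RNAi range. With ecd RNAi hpo fell by 0.21 (SE 0.07, adjusted p = 0.0231). The call was lost without ecd RNAi replicate 3 (adjusted p = 0.0641) or 4 (0.0670) and without control replicate 1 (0.0749) or 2 (0.0717). With added Xrp1 RNAi it was higher than with ecd RNAi alone by 0.23 ± 0.07 (adjusted p = 0.0156). Replicates 3 and 4, the lower pair of hpo values in ecd RNAi libraries and in controls, were also those with the highest fat body sums, 23024 and 25997 with ecd RNAi and 72081 and 30753 in controls. Without these 4 libraries the difference was 0.12 and the call was lost (adjusted p = 0.0616). Between ecd plus Xrp1 RNAi and control hpo differed by 0.02 (95% interval -0.13 to 0.17, adjusted p = 0.903). The gene Rep, on the opposite strand, shares 130 bases (4.64%) of its exons.

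The second kinase of the chain, wts (FBgn0011739, 3R, 30789625 to 30806619, minus strand), stood at 2259, 2139, 2226 and 2796 with ecd plus Xrp1 RNAi, at 1979, 1928, 1883 and 1821.5 in ecd RNAi libraries and at 1939, 2004, 1925 and 1910.4 in controls. Both other groups lay below every ecd plus Xrp1 RNAi library and overlapped each other. With added Xrp1 RNAi wts was higher than with ecd RNAi alone by 0.30 ± 0.07 (adjusted p = 0.00451), a call that was lost without the same 4 libraries with high fat body sums (0.26, adjusted p = 0.0653). The difference between ecd RNAi and control was -0.03 (95% interval -0.19 to 0.13, adjusted p = 0.756), so that a change of more than 0.19 in size on the log2 scale lies outside this interval. Against control, ecd plus Xrp1 RNAi differed by 0.27 ± 0.07 (adjusted p = 0.0615). In the authors' deposited table this difference was 0.27 with an adjusted p of 0.0128, and without ecd plus Xrp1 RNAi replicate 4, the highest of the 12 libraries, it was 0.18 in limma (adjusted p = 0.0473).

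The coactivator gene yki (FBgn0034970, 2R, 24065975 to 24068485, minus strand) stood at 1499, 1366, 1448 and 1551 with ecd plus Xrp1 RNAi, at 1626, 1451, 1329 and 1259 in ecd RNAi libraries and at 1419.8, 1428, 1248 and 1397 in controls. All 3 ranges overlapped. The differences were 0.04 (95% interval -0.13 to 0.21, adjusted p = 0.715) for ecd RNAi against control, 0.05 (-0.12 to 0.23, adjusted p = 0.597) for added Xrp1 RNAi against ecd RNAi, and 0.09 (-0.08 to 0.27, adjusted p = 0.509) for ecd plus Xrp1 RNAi against control. A change in yki larger than 0.27 in size on the log2 scale lies outside these intervals.

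**Figure D2:**
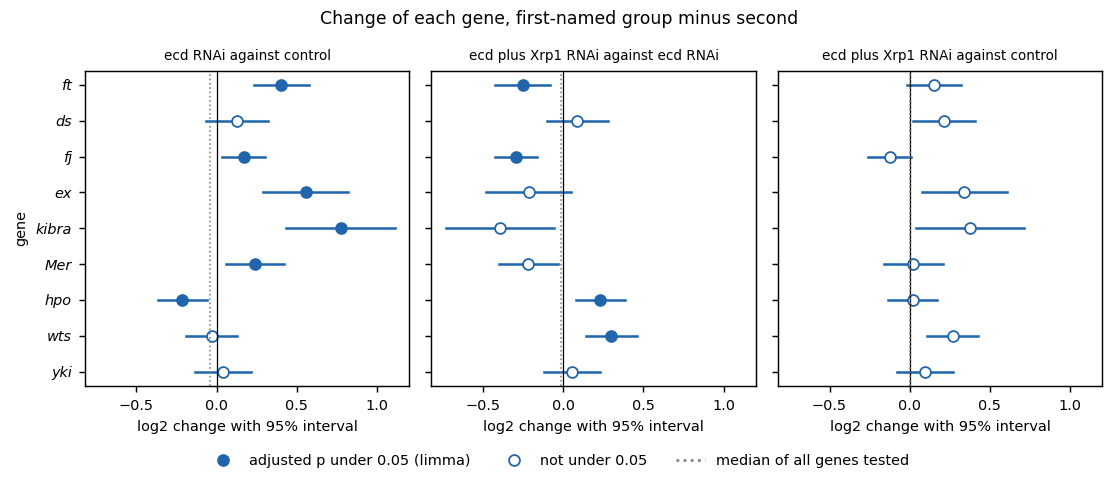
Log2 change (horizontal axes, first-named group minus second) of each gene with its 95% interval in the 3 comparisons, filled where the adjusted p was under 0.05 in limma, with the median of all genes as a dotted line. The intervals of kibra, ex, ft, Mer and fj lie above 0 in the left panel, those of wts and hpo lie above 0 in the middle panel, and no point is filled in the right panel.

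Compared per kilobase of exon, the 9 genes kept 1 order in all 3 groups, from ds, ft, fj, ex, yki, hpo and wts down to Mer and kibra. The mean level of ds was 3137 normalized counts per kb with ecd plus Xrp1 RNAi, 2952 with ecd RNAi and 2702 in controls, and that of kibra was 228 with ecd plus Xrp1 RNAi, 294 with ecd RNAi and 172 in controls. Neighbours in the order whose ranges overlapped were fj with ex and Mer with kibra with ecd plus Xrp1 RNAi. With ecd RNAi they were ds with ft, wts with Mer and Mer with kibra. In controls they were ft with fj, ex with yki and yki with hpo. Spread within a group also differed between genes: in controls the coefficient of variation was 0.763% for ft and 10.1% for kibra, and with ecd plus Xrp1 RNAi it was 1.37% for hpo and 27.0% for kibra.

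The library ecd plus Xrp1 RNAi replicate 4 stood apart in several measures. Ribosomal RNA rows took 28.7% of its signal, against 20.2% to 22.7% in the other 3 of its group, and its pouch, notum, hinge and muscle precursor sums were the highest of the group. It also differed by gene length. Against the other 3 of its group its median log2 deviation was -0.19 in the 2031 genes with the shortest exons (at most 1061 bases) and 0.20 in the 2028 with the longest (at least 4001 bases), of 5 classes of length. Of the members, 5 lie in the longest class (wts, ex, kibra, ft and ds), and the deviations of the 9 ran from -0.03 for fj to 0.53 for ex and 0.68 for kibra. The deviations of kibra, ex, wts (0.34), Mer (0.15) and yki (0.11) were above the median of genes in their class, those of hpo and fj were below it, and those of ft (0.19) and ds (0.23) were below the median of 0.35 of genes of 10 kb or more. The part of length in these values was not tested further than by the adjustment given for ft, and that of the other measures was not tested. Under it, ds passed with added Xrp1 RNAi against ecd RNAi (0.20, adjusted p = 0.0148).

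**Figure D3:**
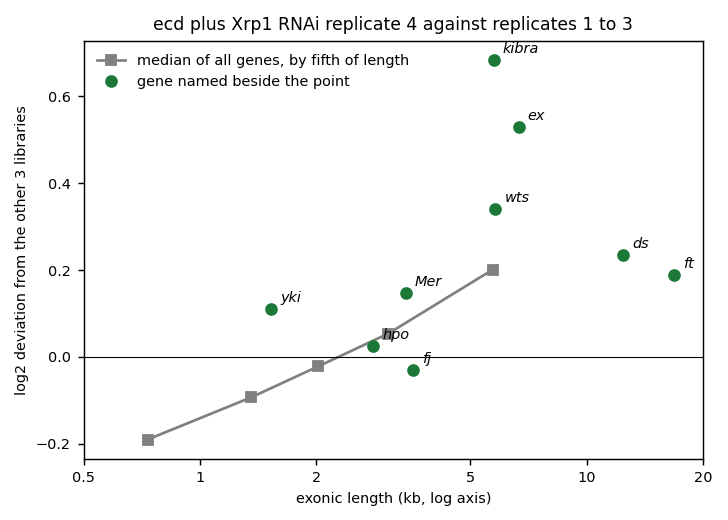
Log2 deviation of ecd plus Xrp1 RNAi replicate 4 from the mean of the other 3 libraries of its group (vertical axis) against exonic length in kb (horizontal log axis), for the 9 genes and as the median of all genes in 5 classes of length. The medians climb from -0.19 to 0.20, and kibra and ex lie farthest above them.

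Ratios of members within a library do not depend on how libraries are scaled. They can still take in differences between libraries by gene length, whose part was not tested. Exons span 3.55 kb in fj and 12.43 kb in ds, and 5.8 kb in wts and 1.52 kb in yki. In both ratios ecd plus Xrp1 RNAi replicate 4, which deviated by gene length, was the extreme library of its group. The log2 ratio of fj to ds, a kinase over a cadherin it modifies, was -2.79, -2.69, -2.67 and -2.98 with ecd plus Xrp1 RNAi, -2.09, -2.48, -2.48 and -2.54 with ecd RNAi and -2.30, -2.40, -2.56 and -2.52 in controls. It was lowest in all 4 ecd plus Xrp1 RNAi libraries. The difference was -0.38 from ecd RNAi and -0.34 from control, each with p = 0.0286 in an exact two-sided permutation test, the smallest that 4 against 4 libraries allow, and 0.0571 after adjustment over 6 ratio tests. Between ecd RNAi and control it was 0.05 (exact p = 0.771). The log2 ratio of wts to its substrate yki was 0.59, 0.65, 0.62 and 0.85 with ecd plus Xrp1 RNAi, 0.28, 0.41, 0.50 and 0.53 with ecd RNAi and 0.45, 0.49, 0.62 and 0.45 in controls. It was higher with added Xrp1 RNAi than with ecd RNAi alone in 4 of 4 libraries by 0.25 (exact p = 0.0286, adjusted 0.0571). The other differences were -0.07 for ecd RNAi against control (exact p = 0.429) and 0.17 for ecd plus Xrp1 RNAi against control (exact p = 0.0857, adjusted 0.129).

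Other genes of the pathway were described from 7 lists, which were chosen with earlier results of these data known. The background for ecd RNAi against control is 47.8% of all genes (22.4% higher and 25.4% lower). Of 8 other genes of the kinase cassette, 1 changed with ecd RNAi, or 4 with the replicate number as a block in the 8 libraries of this comparison (sav, msn and Pez, all higher, were added): mats, the cofactor of Wts, fell by 0.22 (1266 ± 74 with ecd RNAi and 1472 ± 101 in controls; SD, n = 4 each; adjusted p = 0.0103). Of 7 effectors of the Fat branch, 2 rose, the palmitoyltransferase gene app (0.50, adjusted p = 0.00365) and lft (0.31, adjusted p = 0.0239), whose product binds Ft and Ds inside the cell. The call of lft was lost without ecd RNAi replicate 1, 2 or 4 or control replicate 4, which leaves 1 of 7, and that of app without the 4 libraries with high fat body sums. Of 10 antagonists of the Hippo kinase, 5 fell and 1 rose, Rassf (0.25, adjusted p = 0.0186), a call lost without ecd RNAi replicate 1 or 4 or control replicate 3 or 4. With the block 3 rose (Sik2 and par-1 were added). The 5 that fell (Cka, Strip, Slmap, Mob4 and mts) encode parts of the STRIPAK phosphatase complex, which removes activating phosphates from Hpo. Cka changed by -0.35 (adjusted p = 0.00136) and Strip by -0.33 (adjusted p = 0.00384). Fgop2, a further STRIPAK gene of the list, did not pass with ecd RNAi (0.09, adjusted p = 0.293) or with added Xrp1 RNAi (0.02, adjusted p = 0.812). All 5 that fell were higher with added Xrp1 RNAi than with ecd RNAi alone, against 26.7% of all genes, Cka by 0.46 (adjusted p = 2.00e-04) and Strip by 0.34 (adjusted p = 0.00314). The 5 were picked as lower in the same ecd RNAi libraries, so a rise here is not independent. The 26.7% is of all genes and not of genes so picked. Of the 5, Mob4 no longer passed in 9 of 27 alternatives, and the other 4 passed in all 27.

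Among 10 apical polarity and junction genes that feed into the pathway, 4 rose and 1 fell with ecd RNAi. The basolateral gene scrib rose by 0.56 (adjusted p = 7.48e-04) and the Crumbs complex gene sdt by 0.40 (adjusted p = 2.79e-04), while Patj of the same complex fell by 0.28 (adjusted p = 0.0125), which no longer passed without the 4 libraries with high fat body sums. Of 6 nuclear partners of Yki, 2 rose and 2 fell: Wbp2, a binding partner of Yki, by 0.95 (adjusted p = 6.68e-06), the corepressor gene Tgi by 0.30 (adjusted p = 0.00997), sd, the DNA-binding partner, by -0.22 (adjusted p = 0.0125) and hth, a homeodomain partner, by -0.47 (adjusted p = 4.50e-04). The call of sd was lost without those 4 libraries. The genes sd and hth also stand in the pouch and hinge marker lists. Equal totals (of gene rows other than ribosomal RNA) put the median of all genes at -0.10 for ecd RNAi against control. With them, 3 Fat branch effectors fell besides the 2 that rose, and the list of apical genes had 3 that rose and 2 that fell.

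Of 10 known Yki targets 9 could be tested, since the row of mir-ban, the bantam microRNA gene, is listed at 0. With ecd RNAi 3 rose and 1 fell. The glypican gene dlp averaged 5116 ± 306 with ecd plus Xrp1 RNAi, 8404 ± 522 with ecd RNAi and 4835 ± 79.8 in controls (SD, n = 4 each), a rise of 0.80 with ecd RNAi (adjusted p = 1.86e-07). The growth regulator gene Myc averaged 8367 ± 728 with ecd plus Xrp1 RNAi, 14169.6 ± 827 with ecd RNAi and 8428 ± 393 in controls, a rise of 0.75 (adjusted p = 1.84e-06). The caspase inhibitor gene Diap1 fell by 0.29 (adjusted p = 0.0118), and dally, another glypican gene, was the other that rose. Diap1 no longer passed without the 4 libraries with high fat body sums. With equal totals 3 of the 9 fell, and with the adjustment for gene length 4 of the 9 fell. With ecd plus Xrp1 RNAi against control, 1 of these 9 passed, the wing selector gene vg (0.31, adjusted p = 0.0242), which is also a pouch marker; without ecd plus Xrp1 RNAi replicate 2, 3 or 4 or control replicate 3 or 4, 0 of the 9 passed. None of the other 6 lists held a gene that passed there in limma, under any alternative tried.

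Core planar polarity genes, which orient cells beside the Fat system, fell with ecd RNAi in 4 of 6 cases and rose in 0. Of all genes, 25.4% were lower and 22.4% higher. This list too was chosen with earlier results of these data known. The cytoplasmic protein gene pk stood at 5873, 5872, 5670.1 and 8388 with ecd plus Xrp1 RNAi, at 2980, 2902, 3125 and 2995 in ecd RNAi libraries and at 5842, 6466, 6368 and 6262 in controls, a change of -1.05 ± 0.10 with ecd RNAi (adjusted p = 3.10e-06). The ecd RNAi libraries lay below all others. The cadherin gene stan changed by -0.42 (adjusted p = 3.82e-04). The same 4 genes, dsh, Vang, stan and pk, were higher with added Xrp1 RNAi than with ecd RNAi alone, against 26.7% of all genes. As these 4 were picked as lower in the same ecd RNAi libraries, a rise here is not independent. That share is of all genes and not of genes so picked. Vang no longer passed in this comparison in 6 of 27 alternatives, among them the omission of ecd plus Xrp1 RNAi replicate 2 or ecd RNAi replicate 3 or 4. The summed pouch, notum and muscle precursor markers given above were lower with ecd RNAi too, and their part in these changes was not tested.

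**Figure D4:**
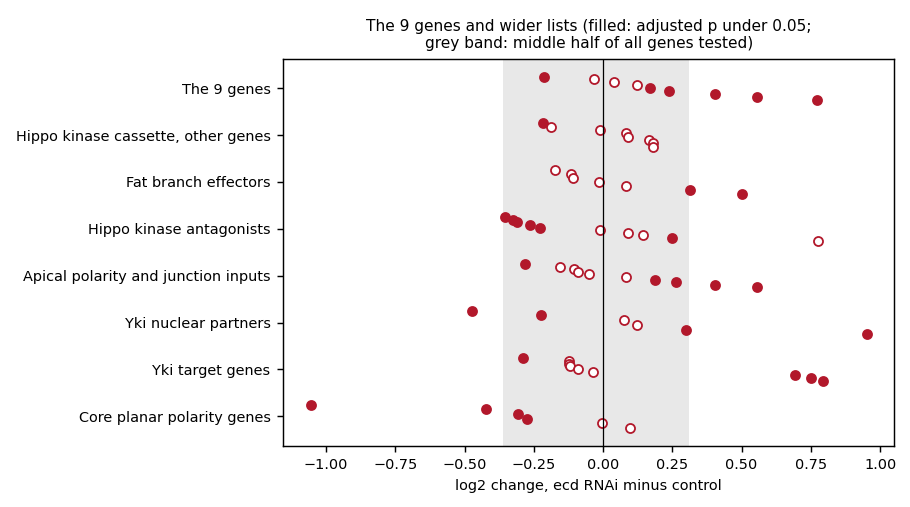
Log2 change, ecd RNAi minus control (horizontal axis), of the 9 genes and of the tested genes of 7 further lists (1 row a list), filled where the adjusted p was under 0.05; the grey band holds the middle of all genes tested, between the lower and upper quartile (-0.36 to 0.31). Among the points beyond the band are kibra, ex and ft in the top row, pk at -1.05 on the left, and Wbp2, dlp, Myc and dally on the right.

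To place each member among all genes, the root mean square difference of its log2 values, each gene's own mean removed, was taken over the 12 libraries against 8278 genes. These are likenesses of level across libraries that share scaling and length effects, with no test. The nearest gene was msl-1 to wts (0.059), Dhx15 to hpo (0.036), CG14194 to yki (0.043), px to ex (0.062), Zmynd8 to kibra (0.115), Ucp4A to Mer (0.050), Nup98-96 to ft (0.043), CG43759 to ds (0.049) and eIF3l to fj (0.054). The second nearest were wcy, CG4452, phol, Shrm, Hers, CG12581, larp, Lar and CG3358 for the same members. Among the members themselves, ex was the 5th nearest gene of 8278 to kibra (0.127), and kibra the 37th nearest to ex. The smallest distance between members was that of Mer and fj (0.105), where fj was the 318th nearest gene to Mer and Mer the 191st nearest to fj, and ft had ex as its nearest member at place 542.

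Introns gave a readout apart from the gene levels. The authors' deposited table of retention ratios holds 40 introns of 7 of the genes (ds 11, ft 7, wts 7, ex 6, yki 5, kibra 3 and hpo 1) and none of Mer or fj. In any comparison 0 of the 40 passed by the authors' deposited table. Of all 17817 introns, 2.32% passed with ecd RNAi against control, 1.26% with ecd plus Xrp1 RNAi against control and 0.208% between both RNAi groups. With only 40 introns, some of which overlap each other in ex and yki, 0 cannot be told apart from such small shares. In that table the median difference in ratio, ecd RNAi minus control, was 0.00056 over the 40 introns and 0.0094 over all introns. The introns named next were chosen after their values were seen. In the authors' deposited table the only intron of hpo had a mean ratio of 0.114 with ecd plus Xrp1 RNAi, 0.0858 with ecd RNAi and 0.0438 in controls. Its adjusted p in the authors' deposited table was 0.0590 for ecd plus Xrp1 RNAi against control and 0.388 for ecd RNAi against control. The authors class this intron as anti-near and not as clean, that is with an antisense feature nearby. Intron 5 of ft (2L, 4208826 to 4208887, 62 bases) had 0.0835 with ecd plus Xrp1 RNAi, 0.0972 with ecd RNAi and 0.0545 in controls, with an adjusted p of 0.185 for ecd RNAi against control there. The mean normalized signal behind an intron, as the authors' deposited table lists it for ecd RNAi against control, was 7.42 to 9.08 for the 3 introns of kibra and 101.6 to 149.8 for those of ds.

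**Figure D5:**
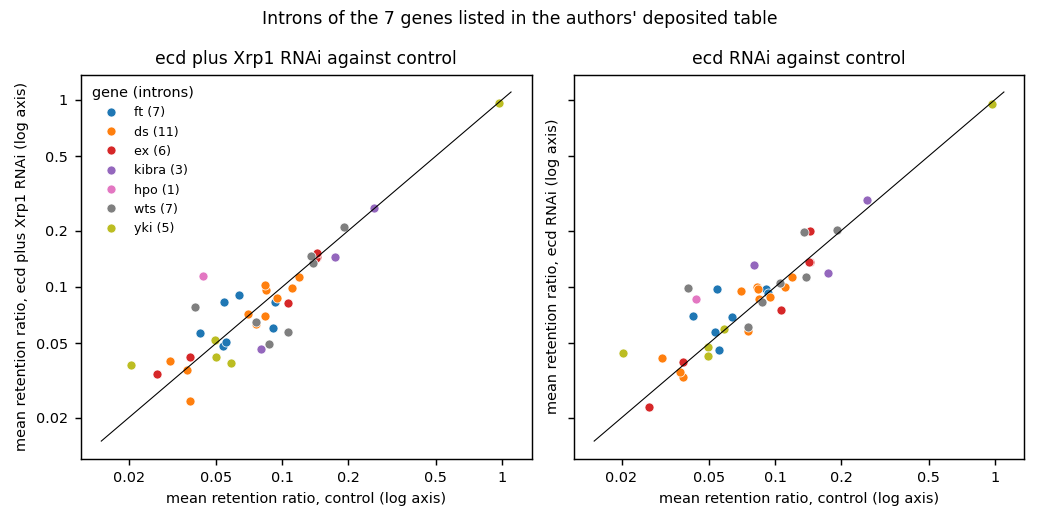
Authors' mean retention ratio (log axes) of 40 introns of 7 genes, with ecd plus Xrp1 RNAi (left) or ecd RNAi (right) on the vertical axis and the control on the horizontal axis, the diagonal marking equal values. Points scatter on both sides of the diagonal, 18 above and 22 below it on the left, 21 above and 19 below on the right, and the intron of hpo lies above it in both panels.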

How the data were processed

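Total RNA of 12 libraries was sequenced; per the labels, kits kept strand and removed ribosomal RNA, and the labels differ on the read layout. Expression was taken from normalized counts that the authors deposited, a signal per gene on a common scale. Per the submitters' processing notes FastQC, cutadapt 3.5, kallisto 0.46.1, DESeq2 1.34.0 and build BDGP6 were used by the authors. The strand setting of counting was not given in the sources used here; overlaps on opposite strands make such values uncertain. Per the file headers, a second deposited table holds the authors' log2 fold changes, test statistics (a score), p-values and adjusted p-values, and another holds the authors' intron retention ratios as a fraction with their log2 fold changes and p-values. No source used here names the intron tool, and 12 columns of ratios per sample were not used.

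Gene rows (17869 of 23932) with a mean of at least 10 were taken as log2(value + 1), a scale on which the change of low genes is understated, and fitted over all 12 libraries by group with limma 3.58.1 in R 4.3.3 (eBayes with a trend), two-sided, with Benjamini-Hochberg adjustment over all genes; adjusted p-values are from this fit unless credited to the authors, and those of ratios from exact permutation tests. Raw counts were not used here, so the precision is that of the spread between 4 libraries. The fit was tested on simulated data. Groups and replicate numbers came from the titles, and the labels call the libraries biological replicates. Deviations from the group means of same-numbered ecd RNAi and control libraries correlated at 0.24 to 0.56. Differently numbered libraries of these groups correlated at 0.47 to 0.57 in 4 of 12 cases (replicates 1 with 2 and 3 with 4). The values thus set replicates 1 and 2 apart from 3 and 4, and do not show that single libraries are paired by number. No label gives such a pairing. A fit that pairs them, with the replicate number as a block in these 8 libraries, was added after seeing the data. Same-numbered pairs with ecd plus Xrp1 RNAi correlated at -0.35 to -0.13. They were paired only in alternatives, such as the block by title number over all 12 libraries.

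The members and lists were chosen with earlier results of these data known. Named were all 9 members, the 2 largest rises and 2 largest falls of each list with ecd RNAi against control, and the 2 genes nearest to each member. Slmap, Mob4, mts, Fgop2, Sik2, par-1, sav, msn, Pez, dally, vg, dsh, Vang and the introns were named after their values were seen. Gene lengths and positions came from an Ensembl annotation of BDGP6. Alternatives changed the pseudocount, filter, scaling, weights, libraries, block and length adjustment.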

Additional observations from a re-analysis of the deposited data

Results flagged for a closer look

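In 3 of 33 groups of 4 values, 1 library lay far from the other 3 relative to the range of the group; chance gives about 1 in 20 such groups. For ex, ecd plus Xrp1 RNAi replicate 4 stood at 10678 normalized counts, and the other 3 of its group at 7120.1 to 7683. For ft, the same library stood at 37188, and the other 3 at 32371 to 33086.5. The log2 ratio of fj to ds was -2.09 in ecd RNAi replicate 1, and -2.54 to -2.48 in the other 3 of that group.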

How the results depend on the processing

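Of 738 values of member changes over 27 or 28 alternatives, 652 kept their direction and side of the threshold, 36 lost a call, 27 gained one and 23 changed sign. The number of members called with ecd RNAi against control ran from 3 (without control replicate 2) to 6 with single libraries left out, and with added Xrp1 RNAi against ecd RNAi from 3 to 7 (7 without ecd plus Xrp1 RNAi replicate 4). That count was 7 with array weights and 2 with a replicate block by the numbers in the descriptions, added after seeing the data. With ecd plus Xrp1 RNAi against control, members called were 0 to 1 with single libraries left out, 1 by quantile normalization, length adjustment (also added after seeing the data), the block by description numbers or the authors' deposited table, and 2 with array weights. All genes called there were 242 to 585 with single libraries left out (242 and 269 without ecd plus Xrp1 RNAi replicates 2 and 3, and 269, 293 and 265 without control replicates 2, 3 and 4), 737 by quantile normalization, 1486 with array weights, 672 with 8 libraries, 150 with the block by description numbers and 1093 in the authors' deposited table. A replicate block by title number gave 4865 genes for ecd RNAi against control, 4868 for added Xrp1 RNAi against ecd RNAi and 429 for ecd plus Xrp1 RNAi against control. In the 8 libraries of the first of these comparisons the block gave 5305 genes and the same 6 members. The data do not show that the numbers pair single libraries there. None of the values that changed sign had passed. With ecd RNAi against control these were yki, -0.021 with equal totals and -0.029 to 0.094 with single libraries left out, wts, 0.037 by quantile normalization, and ds, -0.081 with length adjustment. With added Xrp1 RNAi against ecd RNAi, yki was -0.052 with array weights and -0.069 without the 4 libraries with much fat body RNA (replicates 3 and 4 of ecd RNAi and of the control), where hpo (0.12, adjusted p = 0.0616) and wts (0.26, adjusted p = 0.0653) no longer passed. With ecd plus Xrp1 RNAi against control, hpo was -0.0049 by quantile normalization, -0.022 with equal totals, -0.014 with array weights, -0.079 without those 4 libraries and -0.014 to 0.056 with single libraries left out. Mer was -0.00013, -0.018, -0.035 and -0.060 under the same 4 settings, -0.040 with the block by description numbers, -0.0029 with length adjustment and -0.014 to 0.082 with single libraries left out. The causes were not tested. Depth in reads is unknown, so counting error is not modelled, and 4 libraries a group set the precision.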
